A study of Homo sapiens with 6 samples.

Results

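The cell cycle genes described here are 55 named genes, 29 whose products act mainly in G1 and S phase and 26 whose products act mainly in G2 and mitosis. They were chosen by name, and each was read on its brightest probe set (the group of oligonucleotides that measures 1 transcript) among those annotated to a single gene symbol. In all, 54 of the 55 were measured, out of 19775 genes with such a probe set, and CDKN2C was not analysed here. The samples came from MHCC97H, an established human hepatocellular carcinoma line with high metastatic capacity. All 6 samples had been heated at 47 °C and were then kept for 24 h, 3 with 0 ng/mL (control) and 3 with 100 ng/mL of recombinant periostin (POSTN), a matrix protein that activated hepatic stellate cells secrete. Total RNA was hybridised to Affymetrix HG-U133 Plus 2.0 arrays, 1 per sample, and the samples of each group were numbered 1, 2 and 3. No sample without heat was analysed here, all samples came from 1 line, and nothing in the labels says that samples of a group were separate cultures, so the p-values measure only the spread between these samples.

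A cell enters the cycle when D cyclins with CDK4 and CDK6 phosphorylate the retinoblastoma protein RB1, which releases E2F transcription factors. E2F then drives the genes of the G1/S transition, among them cyclin E, the factors that license replication origins, the MCM helicase, and the enzymes that make deoxynucleotides. The G2/M genes come later and include cyclin B and CDK1, the mitotic kinases, the kinetochore proteins and the spindle checkpoint. They are held down in G1 by the DREAM complex through the CHR element of their promoters and switched on by B-MYB and FOXM1. In liver most hepatocytes rest outside the cycle, while hepatocellular carcinoma cells divide and carry more of these transcripts.

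The promoters of the members differed by phase in the letters they hold, a feature that had no part in choosing the genes. RefSeq windows on build GRCh38.p14, from 250 bases before to 50 bases after each transcript start, were at hand for 44 of the 55 members. The letters searched on both strands were those of an E2F-type site (TTCCCGC or TTGGCGC or TTCGCGC or TTGCCGC, of which some can overlap one another), the CHR element (TTTGAA) and the CCAAT box (CCAAT). An E2F-type site stood in a window of 15 of 23 G1/S genes (65.2%) and 7 of 21 G2/M genes (33.3%), beside 15.3% of the 27305 genes with windows. The CHR letters stood in 1 of 23 G1/S genes (4.35%, RRM1) and 13 of 21 G2/M genes (61.9%), beside 18.2% of all genes. CCAAT stood in 65.2% of the G1/S and 90.5% of the G2/M genes, beside 39.7% of all genes. A match is a description of the letters, not of binding.

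The stretches below show the 160 bases before the transcript start of 3 G1/S genes with an E2F-type site and 2 G2/M genes with a CHR, printed 5′ to 3′ on the gene's own strand, with the E2F-type, CHR and CCAAT letters in capitals (GCGGGAA is TTCCCGC and ATTGG is CCAAT read on the other strand). TYMS (thymidylate synthase) lies at chr18:657493-657652 on the plus strand, TK1 (thymidine kinase) at chr17:78187053-78187212 on the minus strand and MCM6 (a helicase subunit) at chr2:135876444-135876603 on the minus strand. BUB1B (the checkpoint kinase BubR1) lies at chr15:40160909-40161068 and CCNB2 (cyclin B2) at chr15:59104986-59105145, both on the plus strand. 
TYMS: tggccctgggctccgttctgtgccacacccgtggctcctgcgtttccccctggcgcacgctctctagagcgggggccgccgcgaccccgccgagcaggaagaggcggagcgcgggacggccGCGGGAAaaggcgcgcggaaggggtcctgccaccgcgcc
TK1: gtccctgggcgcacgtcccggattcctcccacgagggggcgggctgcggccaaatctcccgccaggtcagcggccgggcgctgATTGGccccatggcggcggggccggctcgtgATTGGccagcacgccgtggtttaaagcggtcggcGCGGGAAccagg
MCM6: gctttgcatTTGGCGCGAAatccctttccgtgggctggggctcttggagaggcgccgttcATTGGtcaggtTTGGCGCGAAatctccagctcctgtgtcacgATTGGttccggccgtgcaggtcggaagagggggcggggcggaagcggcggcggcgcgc
BUB1B: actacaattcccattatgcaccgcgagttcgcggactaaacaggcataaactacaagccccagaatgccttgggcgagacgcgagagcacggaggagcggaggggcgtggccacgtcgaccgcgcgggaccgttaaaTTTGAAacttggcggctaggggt
CCNB2: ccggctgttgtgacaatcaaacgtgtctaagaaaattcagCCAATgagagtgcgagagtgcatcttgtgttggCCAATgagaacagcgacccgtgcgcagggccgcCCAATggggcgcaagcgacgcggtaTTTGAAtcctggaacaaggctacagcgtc

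The deposited values were log2 signals of the MAS5 algorithm, scaled to the same trimmed mean on every array. A background level of log2 5.98 was set from 107 olfactory receptor probe sets, and 47.7 to 49.7% of probe sets per array lay above it. Of the 54 members, 53 lay above it, and CCND2 (cyclin D2) did not, at 4.49 to 6.09. Of 16 measured hepatocellular markers 11 were above background, among them ALB, AFP, KRT8 and KRT18, while APOA1, APOA2, SERPINA1, AHSG and GPC3 were not. Stellate cell and fibroblast markers were above background for 4 of 12 (COL1A1, DCN, LUM and RGS5, with ACTA2, COL1A2 and PDGFRB below), endothelial markers for 2 of 7 (PECAM1 and KDR) and leukocyte markers for 1 of 6 (CD3E, with PTPRC below). The arrays numbered 1 of both groups stood apart from the other 4 on many genes, for example on CD24, at 10.64 and 10.48 against 5.55 to 6.18. In such bulk RNA a change in the share of cells in a phase and a change in RNA per cell cannot be told apart.

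Exogenous POSTN was compared with control to ask whether the transcripts of the cycle differed in heated residual cells. None of the 54 members passed an adjusted p under 0.05 in limma, as was the case for 0% of all 19775 genes, the lowest adjusted p being 1.0. At an unadjusted limma p under 0.05 there was 1 of 54 (CDT1), against 2.48% of all genes and 100 of the 11550 above background. The methods' t-test gave 2 (CDT1 and CDC25B), against 3.1% of genes, and 0 after Benjamini-Hochberg adjustment. The differences were small and ran both ways, with 22 members higher and 32 lower with POSTN and a median log2 difference of -0.014. The G1/S genes (11 higher, 17 lower, median -0.014) and the G2/M genes (11 higher, 15 lower, median -0.012) had nearly the same median. The median was 0.00015 over all genes and -0.0078 over those above background. In 48 members the difference was under 0.1 in size.

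The width of the intervals sets how large a difference could have gone unseen. For all 53 members above background the 95% confidence interval of POSTN minus control lay within -1 to 1 on the log2 scale, and for 48 of them within -0.5 to 0.5. The highest upper bound was 0.67 (CDC25A, a phosphatase that activates CDK2) and the lowest lower bound -0.53 (MCM5, a helicase subunit). These bounds take in the spread between the arrays numbered 1 and the rest.

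**Figure D1:**
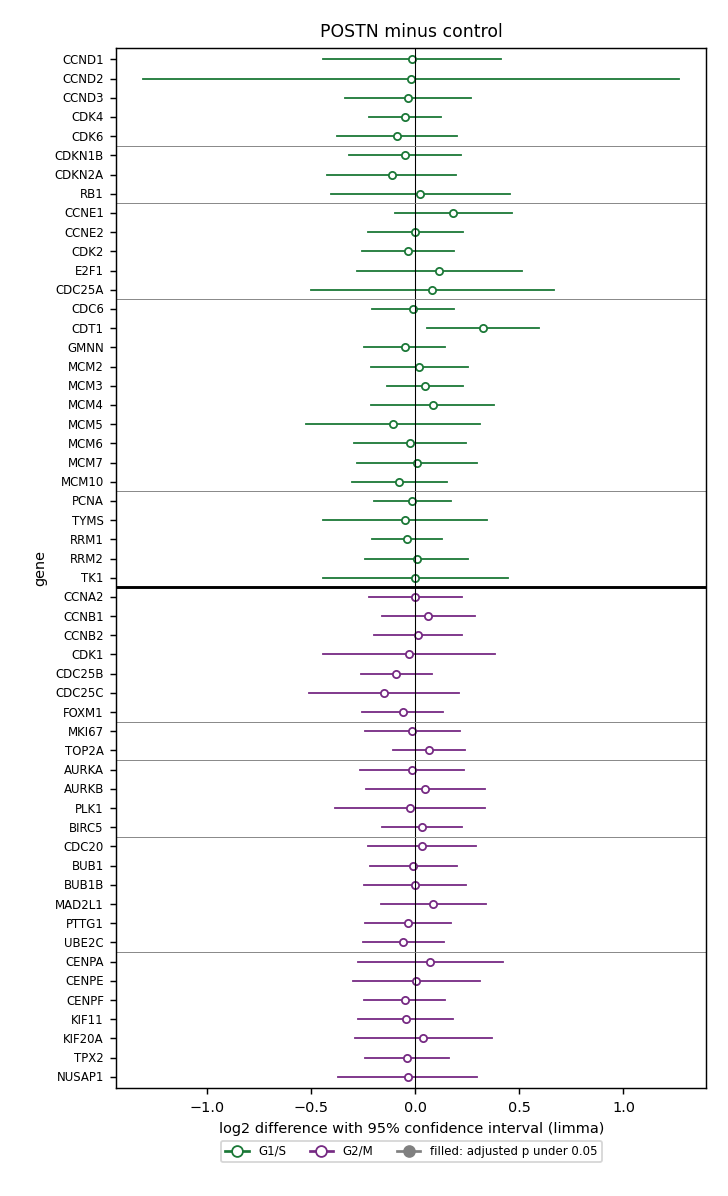
The log2 difference POSTN minus control (x axis) of the 54 measured members (y axis, grouped by role, G1/S above the heavy line), with points for the limma estimate and bars for its 95% confidence interval. All points are open because none passed an adjusted p under 0.05, and the CDT1 interval alone (0.058 to 0.60) leaves out 0.

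CCND1, PCNA and MKI67, which the study also followed by PCR, are given first. By PCR or western blot the study reported higher CCND1 and PCNA with POSTN in heated carcinoma lines that included MHCC97H. For MKI67 it reported a rise by PCR in heated HepG2 cells, another line. CCND1 (cyclin D1, the mitogen-induced partner of CDK4 and CDK6) had log2 signals of 9.85, 10.45 and 10.67 in control numbers 1, 2 and 3 and of 10.13, 10.33 and 10.46 with POSTN. The groups overlapped, and the array numbered 1 was the lowest of each. The means were 10.32 ± 0.43 and 10.31 ± 0.16 (SD, n = 3), a difference of -0.015 with a 95% interval of -0.44 to 0.41. PCNA (the sliding clamp of the replicative polymerases) had 13.95, 13.90 and 13.82 in control and 13.94, 13.91 and 13.77 with POSTN. Here also the groups overlapped, with a difference of -0.014 (95% interval -0.20 to 0.17). MKI67, which encodes the proliferation marker Ki-67 of the mitotic chromosome surface, had 11.13, 11.34 and 11.11 in control and 11.08, 11.19 and 11.26 with POSTN. Its groups overlapped too, with a difference of -0.014 (95% interval -0.24 to 0.21). The sign of all 3 differences turned when single arrays were left out, the widest range being -0.25 to 0.16 for CCND1. Further probe sets above background gave 0.039 for CCND1 and 0.014, -0.26 and 0.065 for MKI67.

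CDT1, the licensing factor that loads the MCM helicase onto origins, was the member with the largest difference. Its signals were 9.47, 9.58 and 9.57 in control (mean 9.54 ± 0.064, SD, n = 3) and 9.87, 9.72 and 10.01 with POSTN (mean 9.87 ± 0.14). All 3 POSTN arrays were above all 3 controls. The log2 difference was 0.33 ± 0.12 (SE), a 1.25-fold higher signal (95% interval 1.04 to 1.51), with an unadjusted limma p of 0.022 and an adjusted p of 1.0. The other CDT1 probe set gave 0.28 in the same direction. CDC25B, a phosphatase that starts the activation of cyclin B and CDK1, was the other member without overlap, with 13.12, 13.04 and 13.04 in control and 12.99, 12.94 and 13.00 with POSTN, a difference of -0.091. So 2 of 54 members had no overlap between groups, against 7.13% of all genes. Of the 11550 genes above background, 250 were higher on all POSTN arrays and 325 lower on all of them.

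Among the other G1/S genes the largest positive differences after CDT1 were 0.18 for CCNE1 (cyclin E1, the partner of CDK2; 95% interval -0.095 to 0.46) and 0.11 for E2F1. CCNE1 had 9.94, 9.93 and 10.08 in control and 9.96, 10.20 and 10.34 with POSTN. E2F1 had 8.19, 7.95 and 8.23 in control and 8.19, 8.43 and 8.10 with POSTN. Both overlapped, and a second E2F1 probe set above background went the other way by -0.46, with an unadjusted limma p of 0.036 and an adjusted p of 1.0, so that no direction can be given for E2F1. The largest negative differences were -0.11 for CDKN2A (the locus of the CDK4 and CDK6 inhibitor p16), -0.11 for MCM5 and -0.089 for CDK6. CDKN2A had 10.90, 10.43 and 10.73 against 10.76, 10.45 and 10.50 with POSTN. CDK6 had 11.43, 11.64 and 11.62 against 11.19, 11.67 and 11.57 with POSTN, and its sign turned without POSTN number 1 (0.053). Other CDK6 probe sets above background gave -0.12, -0.25, -0.18, 0.27 and 0.42, so that they disagree. MCM5 had 10.27, 10.50 and 10.58 against 10.63, 9.87 and 10.53, and its sign rested on POSTN number 2, without which the difference was 0.13. In all 3 of these the groups overlapped.

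Among the G2/M genes the largest positive differences were 0.087 for MAD2L1 (the checkpoint protein MAD2), 0.073 for CENPA (the histone of the centromere) and 0.066 for TOP2A (topoisomerase II alpha, which untangles sister chromatids). MAD2L1 had 12.68, 12.78 and 12.67 in control and 13.05, 12.74 and 12.60 with POSTN. CENPA had 10.07, 9.52 and 9.80 in control and 10.05, 9.84 and 9.72 with POSTN. TOP2A had 12.68, 12.72 and 12.78 in control and 12.80, 12.81 and 12.76 with POSTN. All of them overlapped. The sign of MAD2L1 turned without POSTN number 1 (-0.039), and that of CENPA without control number 2 (-0.067) or POSTN number 1 (-0.019). Further MAD2L1 probe sets above background gave 0.098 and -0.19. After CDC25C (-0.15, a phosphatase of CDK1) and CDC25B, the next negative difference was -0.059 for FOXM1, the transcription factor of G2/M genes. CDC25C had 9.13, 8.66 and 8.83 in control and 8.68, 8.67 and 8.82 with POSTN, so that control number 1 alone was high. FOXM1 had 11.34, 11.29 and 11.31 in control and 11.33, 11.21 and 11.22 with POSTN.

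Set against the control of the same number, 10 members (18.5%) kept the same sign in all 3 numbers, against 25.4% of all genes. CCNE1, CDT1 and CCNB1 were higher with POSTN in each, and CDKN1B, MCM10, TYMS, RRM1, CDC25B, FOXM1 and NUSAP1 were lower in each. Other genes of the cycle behaved likewise, since none of 27 further G1/S genes, 37 further G2/M genes and 13 CDK inhibitors, pocket proteins and p53 targets passed the adjusted p in limma or an unadjusted p under 0.05. Their medians were 0.012, 0.019 and 0.069. The largest differences in these lists above background were -0.39 for CLSPN (a replication checkpoint adaptor) and 0.52 for SGO1 (shugoshin, which guards centromeric cohesion).

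**Figure D2:**
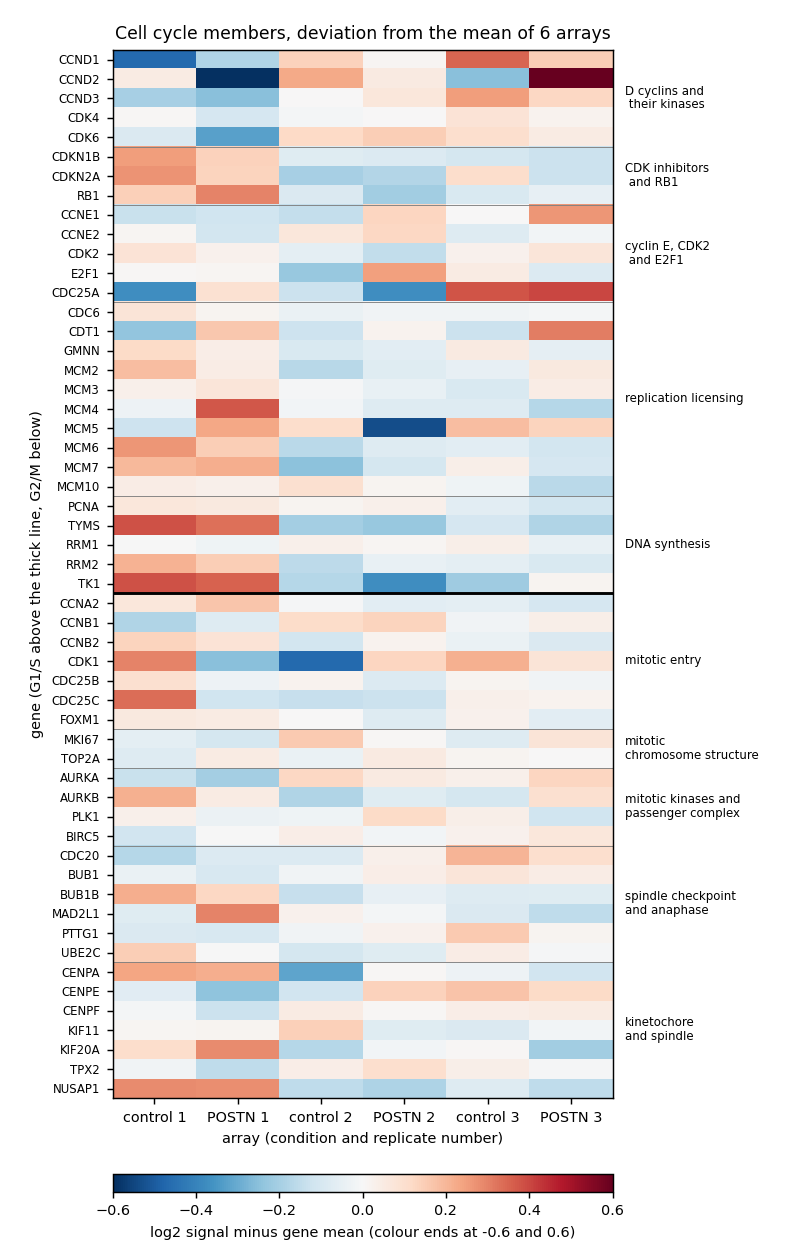
Each measured member (1 row, grouped by role) on each of the 6 arrays (columns), coloured by its log2 deviation from its own mean over the 6 arrays. The columns numbered 1 of control and POSTN share low CCND1, CCND3 and CDK6 and high TYMS, TK1 and NUSAP1, while no block of rows separates control from POSTN.

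The numbers were compared next, in a limma fit on condition and number, with the arrays numbered 1 set against the mean of numbers 2 and 3. What the numbers mark is not given in the labels. In this comparison 12 of the 54 members (22.2%) passed an adjusted p under 0.05, 8 higher and 4 lower in number 1, against 9.82% of all genes (5.08% higher and 4.73% lower). Members are bright, and bright genes passed more often. The share was 16.6% of genes above background and 23.2% of the 3091 genes between the lower and upper quartile of the members' signal (10.43 to 12.46), where 7 of 26 members passed (26.9%). At matched signal the members' share thus lay near that of other genes. All 12 had the same sign within control and within POSTN and no overlap between number 1 and the others. Over all members 27 had no such overlap, 17 above and 10 below, against 31.6% of all genes and 43.8% of those above background.

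These calls rest on how limma estimates the spread. With a prior variance that follows the signal 23 of 54 members had an unadjusted p under 0.05, against 24% of all genes and 37.2% of those above background. With 1 prior variance for all probe sets 2 members had, against 11% of genes, and no member and no gene passed the adjusted p (lowest among members 0.42). Without control number 1, POSTN number 1 or POSTN number 3, in turn, 6 members passed in each case. Without control number 1 only 4 of these were among the 12 (CDK6, NUSAP1, TK1 and TYMS) and 2 were not, while without POSTN number 1 or POSTN number 3 all 6 were.

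TYMS, which makes thymidylate for DNA synthesis, had the lowest adjusted p of the members. Its signals were 13.83 and 13.78 on the arrays numbered 1 of control and POSTN, and 13.25, 13.35, 13.22 and 13.27 on the others. The log2 difference was 0.53 ± 0.051 (SE), a 1.45-fold higher signal, with a limma adjusted p of 0.00013. TK1, which salvages thymidine, had 11.37 and 11.34 in number 1 and 10.81, 10.77, 10.61 and 11.00 on the others. The difference was 0.55 ± 0.090 (SE), 1.47-fold, with a limma adjusted p of 0.0042. NUSAP1, a protein that bundles spindle microtubules, had 12.35 and 12.35 in number 1 and 11.91, 11.99, 11.88 and 11.91 on the others. In all 3 genes both arrays numbered 1 were above the other 4. The difference of NUSAP1 was 0.42 ± 0.059 (SE), with a limma adjusted p of 0.0017, and second probe sets of TYMS, TK1 and NUSAP1 gave 0.78, 0.80 and 0.54. The calls of these 3 genes held in each of the 16 alternatives other than the single prior variance.

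**Figure D3:**
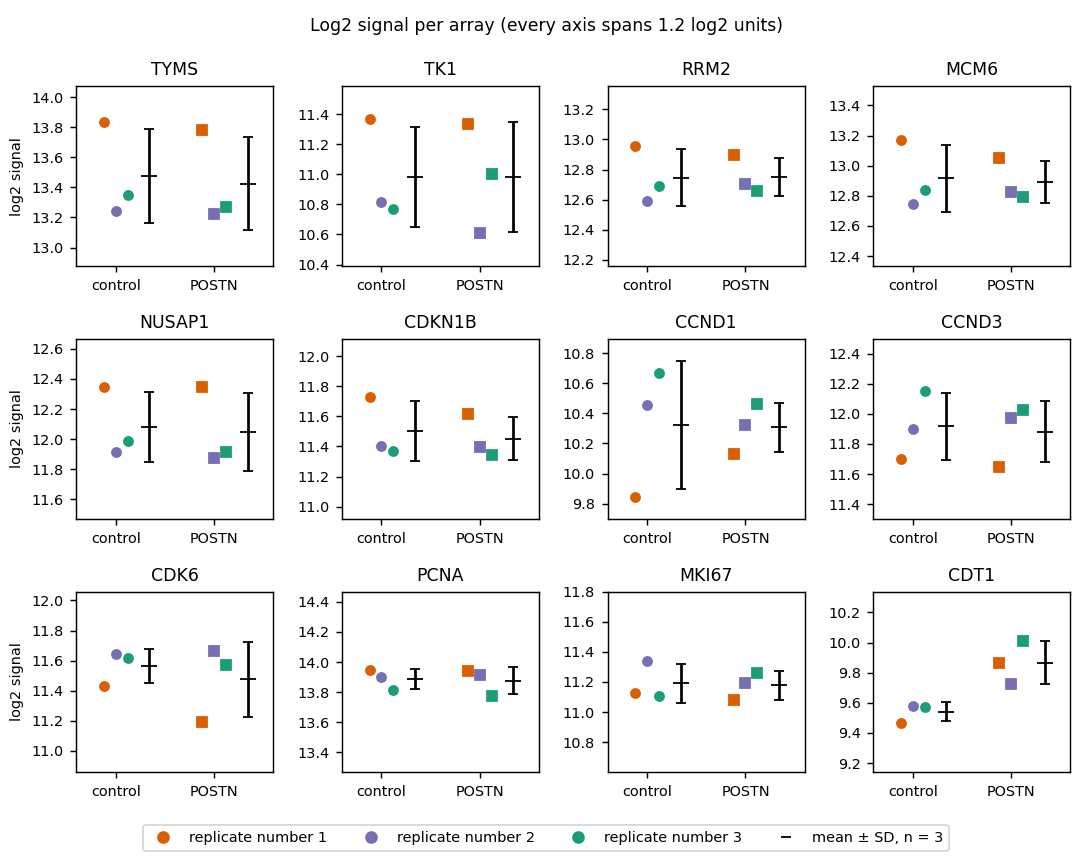
The log2 signal (y axis, spanning 1.2 log2 units in every panel) of 12 members in control (circles) and POSTN (squares), coloured by number, with the mean ± SD of each group (n = 3) as black bars. In TYMS, TK1 and NUSAP1 both arrays numbered 1 lie above the other 4, and in CCND1 below them, in both conditions, while in CDT1 the 3 POSTN points lie above the 3 controls.

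On the brightest probe sets the G1/S genes carried most of the calls, 9 of 28 (32.1%) against 3 of 26 G2/M genes (11.5%). Beside these stood 16.6% of genes above background and 23.2% of those at matched signal. The 3 members that passed only on another probe set (CDK1, MKI67 and TOP2A) were all G2/M genes. The difference by phase is given as a description. Of the 5 genes of deoxynucleotide and DNA synthesis, 4 were higher (median 0.27), and TYMS, TK1 and RRM2 passed. RRM2, the regulated subunit of ribonucleotide reductase, had 12.96 and 12.90 in number 1 and 12.59 to 12.71 on the others, a difference of 0.27 (limma adjusted p = 0.023). RRM1, the large subunit, had a difference of -0.020, and PCNA one of 0.094 (limma adjusted p = 0.37). Of the 10 licensing genes 9 were higher (median 0.097) and the helicase subunits MCM6 (0.31, limma adjusted p = 0.011) and MCM7 (0.31, limma adjusted p = 0.016) passed. MCM6 had 13.17 and 13.05 in number 1 and 12.74 to 12.84 on the others, and MCM7 13.04 and 13.06 against 12.60 to 12.88. MCM6 lost its call without control number 1 and as the median of its probe sets. MCM7 and RRM2 each lost theirs in 3 of the leave-one-out fits.

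The D cyclins and their kinases lay on the opposite side. All 5 were lower in number 1, with a median of -0.33, and CCND1, CCND3 and CDK6 passed, while CDK4 (-0.071) and the dim CCND2 did not. CCND1 was lower by -0.49 ± 0.11 (SE; limma adjusted p = 0.020), with the signals given above, and lost its call without control number 1 (-0.26). Its second probe set gave 0.043, so that the probe sets of cyclin D1 disagree. CCND3 (cyclin D3) had 11.70 and 11.65 in number 1 and 11.90 to 12.15 on the others, a difference of -0.33 (limma adjusted p = 0.011), lost without either array numbered 1. CDK6 was lower by -0.31 (limma adjusted p = 0.029), a call lost without POSTN number 1 or number 3. Other CDK6 probe sets above background gave -0.32, -0.17, -0.089, 0.12 and 0.25, so that they disagree too. All 3 calls were also lost with the median of a gene's probe sets, and that of CDK6 with a pseudocount of 50. Both arrays numbered 1 were below the other 4 in each of these 3 genes.

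All 3 measured members of the group of CDK inhibitors and RB1 were higher in number 1 (median 0.30), and CDKN1B passed. CDKN1B, the inhibitor p27 of cyclin E and CDK2, had 11.73 and 11.62 in number 1 and 11.35 to 11.40 on the others, a difference of 0.29 (limma adjusted p = 0.022). Its call was lost in 4 of the leave-one-out fits. CDKN2A had a difference of 0.30 (limma adjusted p = 0.059), while its second probe set above background gave 0.018. RB1 had one of 0.33 (limma adjusted p = 0.33), with 8.24 and 8.39 against 7.89 to 8.05. Of cyclin E, CDK2, E2F1 and CDC25A none passed, with 2 higher and 3 lower.

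Among the G2/M genes 14 were higher and 12 lower in number 1. BUB1B had 12.39 and 12.29 in number 1 and 12.03 to 12.12 on the others, a difference of 0.25 (limma adjusted p = 0.037). AURKA, the kinase of spindle poles, had 11.80 and 11.72 in number 1 and 11.96 to 12.06 on the others, a difference of -0.25 (limma adjusted p = 0.045). Both calls were lost in 4 of the leave-one-out fits. Beside the single prior variance, the BUB1B call was also lost with a pseudocount of 50. That of AURKA was lost in 5 of the other alternatives, the pseudocount among them. CENPA and KIF20A, with larger differences than BUB1B, did not pass. CENPA had 0.34 (limma adjusted p = 0.098) with 10.07 and 10.05 in number 1, and KIF20A, a kinesin of cytokinesis, had 0.29 (limma adjusted p = 0.16) with 9.94 and 10.12 in number 1 and 9.62 to 9.84 on the others. CENPE, a kinesin of the kinetochore, had -0.23 (limma adjusted p = 0.27) with 10.04 and 9.86 against 9.99 to 10.28, and CCNB1 (cyclin B1) had -0.19 (limma adjusted p = 0.078) with 12.30 and 12.41 against 12.46 to 12.62. MKI67 had -0.12 (limma adjusted p = 0.49).

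**Figure D4:**
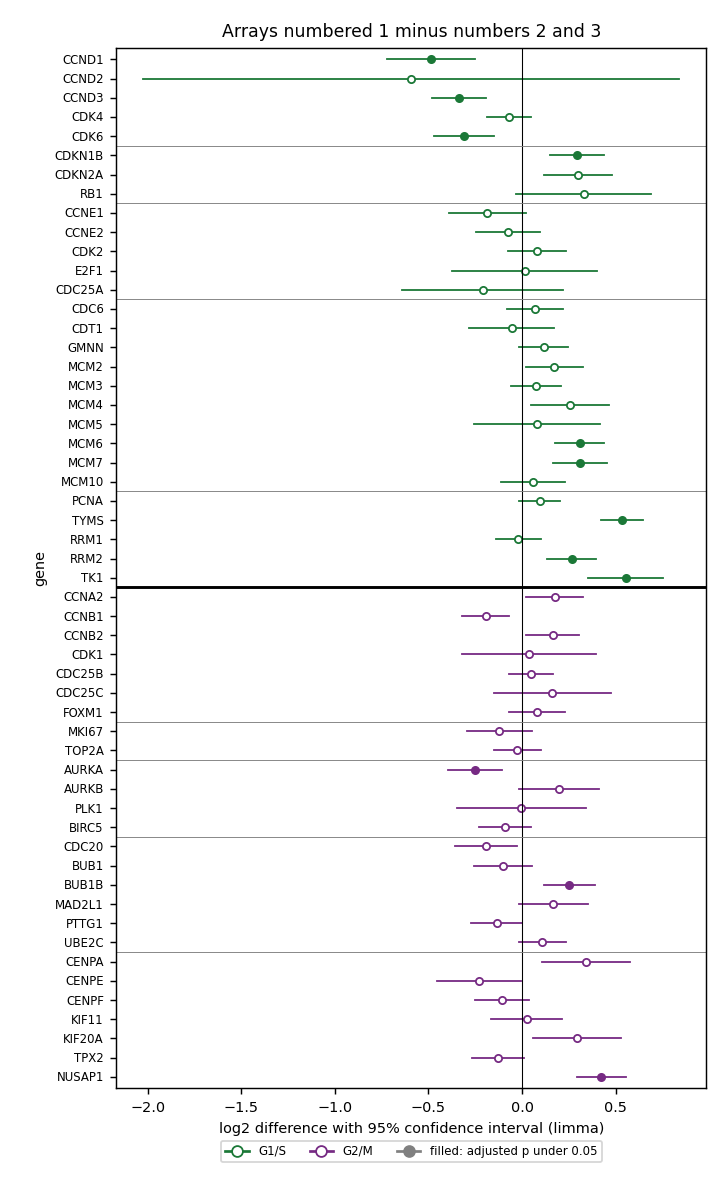
The log2 difference of the arrays numbered 1 from the mean of numbers 2 and 3 (x axis) for the 54 measured members (y axis, same order as in the POSTN plot), with 95% confidence intervals from limma and filled points for an adjusted p under 0.05. The 12 filled points are CCND1, CCND3, CDK6 and AURKA to the left of 0 and TYMS, TK1, RRM2, MCM6, MCM7, CDKN1B, BUB1B and NUSAP1 to the right.

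By array, the median deviation of the G1/S members from their own means was 0.048 in control number 1 and 0.051 in POSTN number 1, and -0.065 to -0.013 on the other 4 arrays. By the mean deviation number 1 was barely apart, at 0.040 and 0.035, with POSTN number 3 at 0.034. For the G2/M members the median deviation was -0.024 to 0.022 over all 6 arrays, with no separation by number. The medians of the number 1 difference were 0.077 for G1/S and 0.031 for G2/M genes, beside -0.0018 over all genes and 0.010 over those above background. Of the 8 members called higher in number 1, 6 hold an E2F-type site in a promoter window. These are MCM6, MCM7, TYMS, RRM2, TK1 and NUSAP1, with the TYMS, TK1 and MCM6 stretches shown above. This stood beside 22 of the 44 members with a window and 65.2% of the G1/S ones. Of the 4 members called lower only CCND3 and CDK6 had a window, and neither held such a site. CCNB1, CDC25A, CDT1 and RRM1, lower in number 1 without a call, do hold one. A link between the site and the direction was not tested.

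Probe sets of 1 gene did not always give the same call. Of 15 further probe sets above background for the 12 called members, 12 had the same direction and 4 passed, all in that direction. CDK1, the kinase of mitotic entry, had a difference of 0.037 on its brightest probe set, while 2 others passed with 0.25 and 0.31 (limma adjusted p = 0.036 and 0.023). MKI67 and TOP2A passed on another probe set alone, with 0.57 and 0.38 (limma adjusted p = 0.046 and 0.013). In these 2 genes the brightest probe set went the other way (-0.12 and -0.024). The further MKI67 probe sets gave -0.26 and 0.25, so that no direction can be given for MKI67.

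Other genes of the cycle were read by number as well, beside the 9.82% of all genes and 16.6% of those above background that passed. Of 27 further G1/S genes 8 (29.6%) passed, 7 higher in number 1 (GINS1, GINS2, UNG, POLD1, MYBL2, DSCC1 and EXO1) and 1 lower (E2F3, -0.43). UNG, a uracil glycosylase that acts at replication forks, and POLD1, the catalytic subunit of polymerase delta, were higher by 0.55 and 0.58. Of 37 further G2/M genes 6 (16.2%) passed, with SPC25, GTSE1 and CDCA3 higher and KIF4A, HJURP and TROAP lower. Of 13 CDK inhibitors, pocket proteins and p53 targets 4 (30.8%) passed, with CDKN2B (the inhibitor p15) higher by 0.63 and CDKN1A, GADD45A and CCNG1 lower. CDKN1A, the p53-induced inhibitor p21, had 9.0 and 9.44 in number 1 and 10.24 to 10.29 on the others, a difference of -1.04 ± 0.11 (SE; limma adjusted p = 0.00031). GADD45A, a stress-induced growth arrest gene, differed by -1.20 ± 0.076 (SE; limma adjusted p = 8.8e-06). In both the arrays numbered 1 were the lowest of the 6, in control and POSTN alike.

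Some markers of cell type differed by number too. Of the 16 measured hepatocellular markers ALB, APOH, FGB, FGG, SERPINA1 and TF passed (37.5%) and were higher in number 1. This stood beside 9.82% of all genes and 16.6% of those above background. In sign 10 of the 16 were higher and 6 lower, with APOB (-0.65), TTR (-0.44), KRT8 (-0.035) and KRT18 (-0.16) lower above background. The log2 difference was 1.65 for APOH, 2.22 for FGG, 2.65 for FGB and 2.83 for TF, while the means of ALB and SERPINA1 in numbers 2 and 3 were not above background. Their summed signal was log2 15.78 to 15.87 in number 1 and 15.70 to 15.84 on the others, set largely by the keratins. The summed stellate and fibroblast markers were at 11.60 to 11.80 in number 1 and 11.84 to 11.96 on the others. Of these 12 markers 6 were higher and 6 lower, and DCN alone passed, lower by -1.0 (limma adjusted p = 0.00041). The summed endothelial markers were at 10.49 to 10.72 and 10.00 to 10.39. Of these 7 markers 2 were higher and 5 lower, with a median of -0.51, and most were below background. PECAM1 alone passed, higher by 0.51 (limma adjusted p = 0.010), and KDR, the other one above background, had -0.013. The summed leukocyte markers were at 7.36 to 7.56 and 7.39 to 7.88. The part of all these markers in the differences of the cell cycle genes was not tested.

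Numbers 2 and 3 were also set against each other in the same fit. None of the 54 members passed, as for 0% of all genes, and at an unadjusted p under 0.05 there was 1 member, against 6.15% of genes. This was CDC25A, lower by -0.64 in number 2, with 7.81 and 7.57 in number 2 against 8.32 and 8.35 in number 3. Without control number 2, MCM5 passed (-0.77, limma adjusted p = 0.020), and without POSTN number 2, CDK1 did (-0.78, limma adjusted p = 0.00010). The remaining array numbered 2 in these fits was the lowest of the 6 for the gene in question, POSTN number 2 for MCM5 (9.87) and control number 2 for CDK1 (12.60).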

How the data were processed

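Total RNA of 6 samples of heated MHCC97H cells was hybridised to Affymetrix HG-U133 Plus 2.0 arrays. The deposited values are log2 signals that, per the submitters' processing notes, were made with MAS5 in the affy package; neither carries a version there. MAS5 subtracts mismatch signal and scales each array to a trimmed mean, which leaves dim probe sets noisy and removes any shift common to all genes. Of 54675 probe sets, 62 Affymetrix controls were left out and 54613 tested. GEO's platform annotation gave 41091 of them 1 symbol, 1801 several and 11721 none. A gene was read on its brightest 1-symbol probe set by the mean of the 6 arrays.

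The values were fitted with limma 3.58.1 in R 4.3.3 (lmFit, eBayes with trend) on all tested probe sets, with Benjamini-Hochberg adjustment over all of them and a threshold of 0.05. POSTN was set against control without covariates, 3 against 3. Number 1 against numbers 2 and 3, and number 2 against 3, came from a fit on condition and number. The number of arrays limits the precision. No 2 arrays were identical. The steps were tested on simulated data. Genes given by value were those the study measured by PCR, the called members, and the 3 largest rises and falls per phase and comparison above background, the 95th percentile of olfactory receptor probe sets. The members, their phase classes, the other gene lists and the comparison by number were chosen with earlier results of these data known. Alternatives were quantile normalization, median centring, a pseudocount of 50, filters on dim or cross-hybridising probe sets, the median of a gene's probe sets, no trend, array weights, other codings of the number, the methods' t-test, the replicate block and leaving out each array.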

Additional observations from a re-analysis of the deposited data

How the results depend on the processing

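The count of members called with POSTN was 0 in every setting run, the methods' t-test, the study's fold and p thresholds and every left-out array included. Of 190 values of single members with POSTN 182 kept their direction and side of the threshold. In the other 8 the sign turned. PCNA gave 0.020 after quantile normalization and CCND1 0.012 as the median of its probe sets. E2F1 gave -0.17 as that median and -0.46 once the _x_at and _s_at probe sets were dropped. MKI67 gave 0.0026 with array weights. Without both arrays numbered 1, a setting chosen after seeing the data, MKI67 gave 0.0034. In that setting CDC25C gave 0.0015, against -0.15 in the main fit, and MAD2L1 -0.054, against 0.087. Leaving out 1 array at a time, the difference ranged from -0.050 to 0.038 for PCNA, -0.25 to 0.16 for CCND1, -0.057 to 0.061 for MKI67, -0.067 to 0.21 for CENPA, -0.18 to 0.053 for CDK6, -0.039 to 0.19 for MAD2L1 and -0.25 to 0.13 for MCM5. The G2/M median with POSTN was -0.063 after median centring and -0.038 to -0.0051 without 1 array.

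In the comparison of number 1 with numbers 2 and 3, 12 calls became 0 without the trend in the prior variance and 6 to 15 without 1 array, and no value of a single member turned. The G1/S median was 0.095 after median centring, 0.14 as the median of probe sets and 0.070 to 0.088 without 1 array. The G2/M median was 0.062 without _x_at and _s_at probe sets, 0.095 as the median of probe sets and -0.0049 to 0.051 without 1 array. The count for number 2 against 3 was 0 to 1 without 1 array. The cause was not tested. Same-numbered samples deviated together with r = 0.088, 0.034 and 0.025 over all probe sets and 0.53, 0.23 and 0.24 over those above background. Every sample correlated best with its own number, but numbers 2 and 3 also deviated together across the groups. Above background r was 0.20 for control number 2 with POSTN number 3 and 0.15 for control number 3 with POSTN number 2. With the replicate block 0 members passed with POSTN, as without it (lowest adjusted p of a member 0.97), and 1, CDT1, had an unadjusted p under 0.05, against 4.76% of genes. Few arrays and signals near background limit what CCND2 can show.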
